A study of Mus musculus with 4 samples.

Results

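This account describes 38 genes of DNA repair and the DNA damage response in a human lung carcinoma line, H460, after exposure to farnesol. The genes were chosen by name from the main repair pathways, and every non-control probe carrying one of those names was taken. They had 57 of the 41000 probes on the array. The cells received 250 µM farnesol, an isoprenoid alcohol, for 4 h, and the comparison cells received the vehicle DMSO. Neither group had another agent or a genetic change, per the labels, and all results are for 1 line, 1 dose and 1 time. Duplicate experiments were made, each pairing a farnesol RNA with its own vehicle RNA, and each pair was measured on an array and on its dye swap. There were thus 4 arrays and 2 replicates. The labels do not say what separated the replicates beyond calling them duplicate experiments, so every test measures only the spread between these pairs. The organism is given as mouse in the labels, but their protocols describe H460 and the array's genes are human, and the data were treated as human.

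DNA repair pathways are divided by the damage they recognise. Base excision repair removes single altered bases and mends single-strand breaks, mismatch repair corrects copying errors, and nucleotide excision repair cuts out bulky lesions such as those made by ultraviolet light. Homologous recombination and end joining rejoin double-strand breaks, the Fanconi anaemia proteins act on crosslinks, and kinases such as ATM and ATR signal damage to the cell cycle. Sequences and genome positions of the probes were not used here.

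On each array, between 82.66% and 92.98% of spots were brighter than their surroundings by the scanner software's test, called well above background here. Ratios of dye-swapped arrays correlated at r = 0.9431 and 0.9415 across features, and arrays of different replicates at r = 0.6336 to 0.6843. All 5 epithelial markers matched on the array (keratins KRT8, KRT18 and KRT19, the adhesion molecule TACSTD1 and cadherin CDH1) were well above background on all 4 arrays, at intensities of 153 to 18752 in farnesol RNA and 185 to 22579 in vehicle RNA. The 4 leukocyte markers ranged from 55.2 to 549.9 and from 54.7 to 503, the 3 endothelial markers from 73.1 to 166 and from 71.0 to 149, and the 3 fibroblast markers from 61.2 to 203 and from 61.2 to 163, in farnesol and in vehicle RNA in that order. All 4 leukocyte markers, 2 endothelial markers and 2 fibroblast markers were well above background on all 4 arrays, and the fibroblast marker PDGFRB was so on none.

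Each value is a log2 ratio, farnesol over vehicle, so a negative value means less RNA after farnesol. The arrays of a pair were averaged, and a mean is given ± the SD of the 2 replicates. The ratios compare equal amounts of labelled RNA from whole cultures, and fewer cells holding a transcript and less RNA per cell cannot be told apart. All 38 genes had at least 1 probe that could be tested, and the brightest probe of each was well above background in both channels of all 4 arrays. The median brightness of these probes was 8.21 on the log2 scale, against 7.48 over the 28600 features tested.

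The genes lay mostly below vehicle after farnesol, and by little. Their median log2 ratio was -0.16, with a range of -2.09 to 0.36, whereas the median over all features tested was 0.01. Without PARP1, which had the lowest ratio, the median was -0.14. Taken from replicate 1 alone the median was -0.0496, and from replicate 2 alone it was -0.17. The epithelial markers were lower as well: all 10 of their probes had mean log2 ratios below 0, from -0.65 for KRT19 to -0.10 for a KRT18 probe. The 6 probes of leukocyte markers had ratios of 0.01 to 0.16, the 4 of endothelial markers 0.01 to 0.16, and the 5 of fibroblast markers -0.00 to 0.31. The part of these shifts in the repair genes' ratios was not tested. In both replicates 22 genes were lower (30.1% of all features were) and 5 were higher (35.4% were). Of the 38 genes, 15 (39.5%) were lower on all 4 arrays, against 21.9% of all features tested and 24.8% of those with a gene symbol. Only 2 genes, ERCC2 and ERCC4, were higher on all 4 arrays (5.26%, against 20.9% of all features). None of the 38 passed limma's moderated test after Benjamini-Hochberg adjustment over all features, a threshold passed by 0.0105% of features, or 3 of them. At an unadjusted p under 0.05, 9 genes were lower (10.8% of all features were) and 0 were higher (3.71% were). With the 4 arrays entered one by one and the RNA pair as a random block, 8 of the 38 passed limma's adjusted test, all of them lower, as did 10.1% of all features. That fit counts the dye-swapped technical repeats towards its degrees of freedom and adds no RNA pair, so its calls are not further replication.

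**Figure D1:**
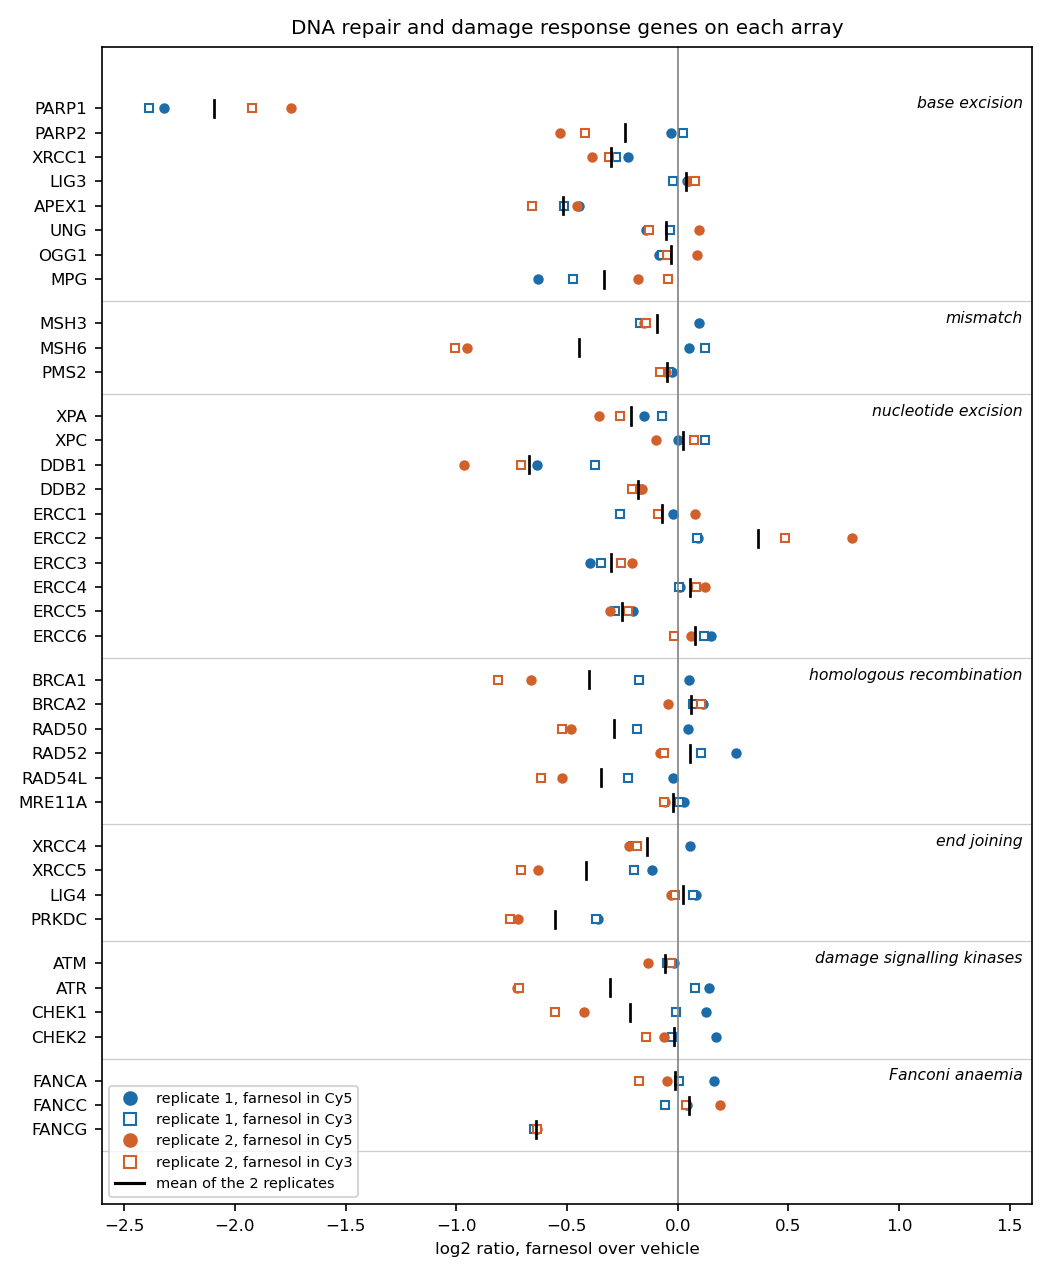
Log2 ratio of farnesol over vehicle (x axis) of the 38 genes on each of the 4 arrays, grouped by pathway. Blue marks replicate 1 and orange replicate 2, filled circles the arrays with farnesol in Cy5 and open squares those with farnesol in Cy3, and black bars the mean of the 2 replicates. PARP1 stands apart on all 4 arrays, and MSH6, ATR and BRCA1 show orange points far to the left of blue ones.

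PARP1, the poly(ADP-ribose) polymerase that binds DNA strand breaks, was the only gene of the 38 past 2-fold in both replicates with all 4 arrays alike. Of all features tested, 0.238% were at least 2-fold lower by that rule and 0.657% at least 2-fold higher. The normalised intensity of PARP1 in farnesol RNA was 646 and 550 in replicate 1 and 896 and 845 in replicate 2, with farnesol in Cy5 and then in Cy3. In vehicle RNA of the same arrays it was 3222, 2875, 3002 and 3200. Every farnesol value was below every vehicle value, and the vehicle values were close to each other. Here and below, the 4 intensities of a condition come from 2 RNAs. How many of all features separate in this way was not counted. The log2 ratios were -2.32 and -2.39 on the replicate 1 arrays and -1.74 and -1.92 on the replicate 2 arrays. The mean was -2.09 ± 0.37 (SD, n = 2), a 4.26-fold lower level, and 3 of the 28600 features had a lower mean. The adjusted p was 0.192 by limma with Benjamini-Hochberg adjustment, and the unadjusted p was 0.001426.

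**Figure D2:**
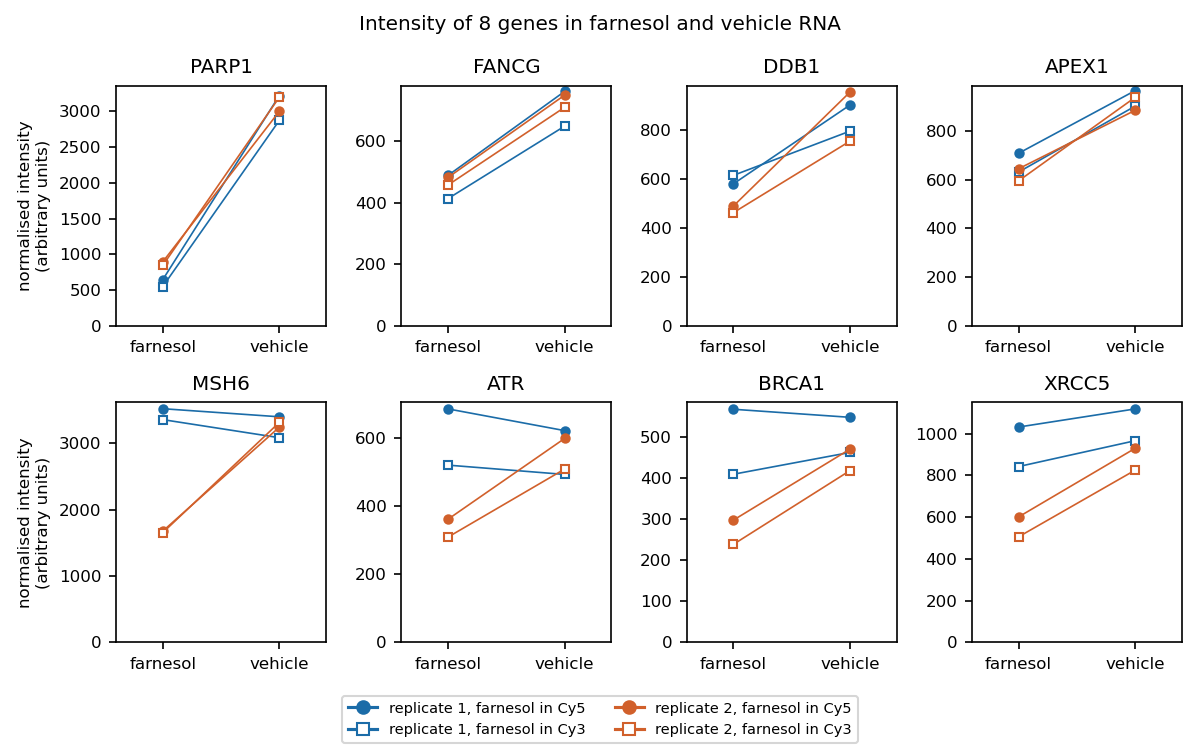
Normalised intensity (y axis, arbitrary units, from 0) of 8 genes in farnesol RNA (left in each panel) and vehicle RNA (right), with lines joining the channels of 1 array. In the upper row (PARP1, FANCG, DDB1, APEX1) all 4 lines climb towards vehicle. In the lower row the replicate 2 lines (orange) climb more steeply than the replicate 1 lines (blue), and the blue lines of MSH6 and ATR and 1 blue line of BRCA1 slope the other way.

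The close relatives and partners of PARP1 in base excision and single-strand break repair had much smaller ratios. PARP2, the second polymerase activated by DNA breaks, averaged -0.24 ± 0.33, with -0.00 in replicate 1 and -0.47 in replicate 2. XRCC1, the scaffold of single-strand break repair, averaged -0.30 ± 0.07, lower on all 4 arrays, with an adjusted p of 0.249 by limma. LIG3, the ligase bound to XRCC1, averaged 0.04 ± 0.04. Thus of these break-repair partners XRCC1 alone was lower on every array, at 1.23-fold, and LIG3 stayed near 0.

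APEX1, the endonuclease that cuts the DNA backbone at sites without a base, had intensities of 708, 631, 645 and 595 in farnesol RNA, against 965, 902, 885 and 938 in vehicle RNA (replicate 1 with farnesol in Cy5 and Cy3, then replicate 2 likewise). Its mean log2 ratio was -0.52 ± 0.05, or 1.43-fold lower, with an adjusted p of 0.192 by limma, and a dimmer APEX1 probe averaged -0.37. Among the glycosylases, which remove the altered base, MPG averaged -0.33 ± 0.31. MPG acts on alkylated bases, and its ratio was -0.55 in replicate 1 but -0.11 in replicate 2. UNG, which removes uracil, averaged -0.05 ± 0.05. OGG1, which removes oxidised guanine, averaged -0.03 ± 0.07 on its brightest probe. The median of the 8 base excision genes was -0.27, or -0.17 in replicate 1, -0.23 in replicate 2 and -0.41 with median centring in place of loess. Of these genes 4 (PARP1, XRCC1, APEX1 and MPG) were lower on all 4 arrays, against 21.9% of all features.

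In mismatch repair the brightest probe was that of MSH6, a protein that recognises mismatches. MSH6 had intensities of 3523 and 3358 in farnesol RNA of replicate 1 and 1677 and 1654 in farnesol RNA of replicate 2. In vehicle RNA it had 3401 and 3086 in replicate 1 and 3245 and 3317 in replicate 2. The vehicle values were alike in all 4 channels, and the farnesol values of the replicates differed, so the groups overlapped over both replicates together. The log2 ratio was 0.09 in replicate 1 and -0.98 in replicate 2, and the mean of -0.45 ± 0.75 had an adjusted p of 0.613 by limma. MSH3, which recognises larger loops of unpaired bases, averaged -0.09 ± 0.08. PMS2, a subunit of the complex that nicks the strand to be corrected, averaged -0.05 ± 0.02. Its 4 probes averaged between -0.08 and -0.00, and since PMS2 has near-identical pseudogenes their signal may not be its own alone.

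Nucleotide excision repair held the lowest ratio after that of PARP1, which was DDB1's, and the highest, which was ERCC2's. DDB1 is the large subunit of the complex that recognises ultraviolet damage and an adaptor of the CUL4 ubiquitin ligases. It had intensities of 581, 615, 490 and 463 in farnesol RNA, against 903, 796, 956 and 755 in vehicle RNA. Its log2 ratios were -0.64 and -0.37 in replicate 1 and -0.96 and -0.71 in replicate 2, more negative with farnesol in Cy5 in both replicates. The mean was -0.67 ± 0.23, a 1.59-fold lower level, with an adjusted p of 0.221 by limma. DDB2, the damage-binding subunit that works with DDB1, was lower by a similar small amount in both replicates, with a mean of -0.18 ± 0.00 and an adjusted p of 0.337 by limma.

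The subunits of the excision machinery differed among themselves. ERCC3, a helicase of the transcription factor TFIIH, averaged -0.30 ± 0.10, with -0.37 in replicate 1 and -0.23 in replicate 2. ERCC2, the other TFIIH helicase, averaged 0.36 ± 0.39, with 0.09 in replicate 1 and 0.64 in replicate 2, and was higher on all 4 arrays. ERCC2 intensities were 1299, 1904, 2295 and 2828 in farnesol RNA, against 1218, 1794, 1328 and 2018 in vehicle RNA, and these overlapped. So both helicases kept 1 direction on all arrays, ERCC3 below and ERCC2 above vehicle. A second and dimmer ERCC2 probe with the same RefSeq accession averaged -0.04 ± 0.03 and did not share that direction.

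Of the nucleases, ERCC5, which cuts 3′ of the lesion, averaged -0.25 ± 0.01 and was lower on all 4 arrays. The nuclease that cuts 5′ of the lesion is made of ERCC4 and ERCC1, which averaged 0.06 ± 0.07 and -0.07 ± 0.10. XPA, which verifies the damage, averaged -0.21 ± 0.14 and was lower on all 4 arrays. XPC, the first sensor of lesions across the genome, averaged 0.03 ± 0.05. ERCC6, which starts repair where RNA polymerase has stalled, averaged 0.08 ± 0.08. The median of the 10 genes was -0.13. On all 4 arrays 5 of them were lower and 2 higher, against 21.9% and 20.9% of all features.

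Among the homologous recombination genes, 3 of 6 were at least 1.25-fold lower in replicate 2 and within 1.25-fold in replicate 1. Of all features tested, 7.58% met that rule, which was chosen after the values were seen. BRCA1, which directs broken ends to recombination, had intensities of 567 and 409 in farnesol RNA of replicate 1 and 297 and 238 in farnesol RNA of replicate 2, against 547 and 462 and then 470 and 418 in vehicle RNA. Its log2 ratios were 0.05 and -0.18 in replicate 1 and -0.66 and -0.81 in replicate 2, with a mean of -0.40 ± 0.48 and an adjusted p of 0.512 by limma. Only in replicate 2 did the channels of the conditions separate. RAD54L, a motor protein that helps strand exchange, averaged -0.35 ± 0.32, and RAD50, which holds broken ends together, averaged -0.29 ± 0.31. In replicate 2 their ratios were -0.57 and -0.50, and in replicate 1 they were -0.12 and -0.07. A dimmer RAD50 probe had 0.01 in replicate 1 and -0.13 in replicate 2, so it did not meet the rule. BRCA2, a mediator of recombination, averaged 0.06 ± 0.04, RAD52, an annealing protein, 0.06 ± 0.18, and MRE11A, the nuclease partner of RAD50, -0.02 ± 0.05. The median of the 6 genes was -0.15, or -0.0223 in replicate 1 and -0.29 in replicate 2. RAD54L alone was lower on all 4 arrays, as were 21.9% of all features.

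In end joining, the catalytic kinase and an end-binding subunit were lower on every array, and the ligation factors had smaller ratios. PRKDC, the DNA-dependent protein kinase, had intensities of 323, 278, 222 and 202 in farnesol RNA, against 416, 360, 366 and 341 in vehicle RNA. Its mean log2 ratio was -0.55 ± 0.26, or 1.47-fold lower, with an adjusted p of 0.269 by limma, and a dimmer probe averaged -0.24. XRCC5, the Ku80 subunit that binds broken ends, had -0.16 in replicate 1 and -0.67 in replicate 2, with a mean of -0.41 ± 0.36 and an adjusted p of 0.435. XRCC4, which stabilises the ligase, averaged -0.14 ± 0.09, and LIG4, the ligase itself, averaged 0.03 ± 0.07. The LIG4 intensities, 75.9 to 84.1 in farnesol RNA and 75.9 to 80.4 in vehicle RNA, were among the dimmest of the 38 genes, and the background offset of 50 shrinks ratios at that level. The median of the 4 genes was -0.27, or -0.11 in replicate 1 and -0.43 in replicate 2.

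Of the damage signalling kinases, ATR and CHEK1 of the replication stress branch differed between replicates. ATM and CHEK2 of the double-strand break branch were near 0, but on dimmer probes. Their log2 brightness was 6.4 and 7.1, against 9.0 for ATR and 8.3 for CHEK1. ATR, the kinase activated by single-stranded DNA, had intensities of 685 and 520 in farnesol RNA of replicate 1 and 361 and 309 in farnesol RNA of replicate 2, against 621 and 493 and then 599 and 509 in vehicle RNA. Its log2 ratio was 0.11 in replicate 1 and -0.72 in replicate 2, and the mean of -0.31 ± 0.59 had an adjusted p of 0.655 by limma. CHEK1, the checkpoint kinase that ATR activates, showed the same split, with 0.06 in replicate 1 and -0.49 in replicate 2 and a mean of -0.21 ± 0.39. ATM, activated by double-strand breaks, averaged -0.06 ± 0.04, and its 2 further probes were not well above background on any array. CHEK2, the checkpoint kinase that ATM activates, averaged -0.01 ± 0.12.

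FANCG, a subunit of the Fanconi anaemia core ubiquitin ligase, was the second gene at least 1.5-fold lower in both replicates, beside PARP1. By that rule 1.43% of all features were lower and 1.26% higher, and 0 of the 38 genes were higher. FANCG had intensities of 489, 414, 483 and 458 in farnesol RNA, against 763, 650, 750.4 and 711 in vehicle RNA. Its log2 ratios of -0.64 and -0.65 in replicate 1 and -0.64 and -0.63 in replicate 2 were nearly the same on all 4 arrays. The mean was -0.64 ± 0.01, a 1.56-fold lower level, with an adjusted p of 0.192 and an unadjusted p of 0.001731 by limma. The core complex subunit FANCA, at -0.01 ± 0.14, did not share that ratio. FANCC, another core subunit, averaged 0.05 ± 0.09 on its brightest probe, which was designed on a clone with a retained intron. The probe for its RefSeq transcript averaged -0.31 ± 0.11 and was lower on all 4 arrays, by less than FANCG.

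The replicates differed for many of these genes, more often in one direction. The ratio was lower in replicate 2 than in replicate 1 for 27 of the 38 genes (71.1%), against 48.8% of all features. In all, 9 genes were at least 1.25-fold lower in replicate 2 and within 1.25-fold in replicate 1, namely PARP2, XRCC1, MSH6, BRCA1, RAD50, RAD54L, XRCC5, ATR and CHEK1. That was 23.7% of the genes, against 7.58% of all features and 9.57% of features with a gene symbol. The reverse held for 2 genes, MPG and ERCC3 (5.26%, against 2.8% of all features). For XRCC1 and ERCC3 the cut fell between similar ratios, and both were lower on all 4 arrays. XRCC1 had -0.25 in replicate 1 and -0.35 in replicate 2, and ERCC3 had -0.37 and -0.23. In both replicates, 5 genes (PARP1, APEX1, DDB1, PRKDC and FANCG) were at least 1.25-fold lower, or 13.2% against 5.09%, and 21 were within 1.25-fold, or 55.3% against 73.8%. ERCC2 was the only gene at least 1.25-fold higher in replicate 2 alone (2.63%, against 4.7%), and 0 genes were that much higher in both (2.22% of all features were). The 38 genes had a median log2 brightness of 8.21, against 7.48 for all features and 7.74 for those with a gene symbol. The background offset shrinks ratios of dim probes, so shares past a fold depend on brightness. The part of brightness in these differences was not tested.

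The gaps were larger between replicates than between dye-swapped arrays. The median gap between the arrays of a pair was 0.07 in replicate 1 and 0.08 in replicate 2, and the median gap between the replicates was 0.13, against 0.11 over all features. Across the 38 genes the replicates correlated at r = 0.685 (rho 0.469), and without PARP1 at r = 0.392. Over all features r was 0.680. These points share arrays and are not independent. With 1 RNA pair in each replicate, the difference between the replicates has no test.

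**Figure D3:**
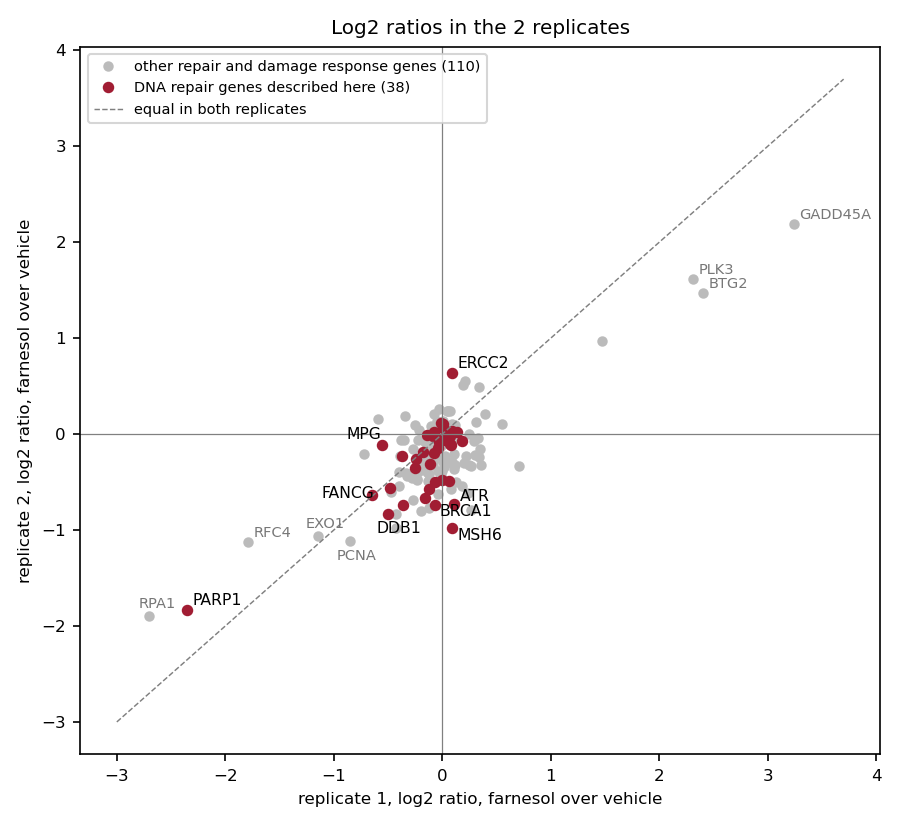
Log2 ratio of farnesol over vehicle in replicate 1 (x axis) and in replicate 2 (y axis), for the 38 genes (dark red) and 110 other repair and damage response genes (grey), with a dashed line where both replicates are equal. PARP1 lies near RPA1 at the lower left, and MSH6, ATR and BRCA1 lie near 0 in replicate 1 and well below it in replicate 2.

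Of the 38 genes, 10 had more than 1 probe that could be tested, and in none did 2 probes differ by over 2-fold. PARP1, DDB1 and FANCG, the genes with the lowest mean ratios, each had only 1 probe on the array, so no second probe could be compared. FANCC had the widest difference, 0.50. Its brighter probes were designed on a cDNA clone described in the array's annotation as holding a retained intron (BC034271), and they averaged 0.05 ± 0.09 and 0.19 ± 0.18. The probe for the FANCC RefSeq transcript (NM_000136) had -0.26 and -0.21 in replicate 1 and -0.40 and -0.37 in replicate 2, with a mean of -0.31 ± 0.11. Thus the RefSeq probe was lower on all 4 arrays and the retained-intron probes were not. For OGG1, the probe of transcript NM_016819 averaged -0.42 ± 0.16 and was lower on all 4 arrays, at -0.51 and -0.56 in replicate 1 and -0.24 and -0.38 in replicate 2. The OGG1 probes of NM_016821 and NM_002542, described as other splice variants, averaged -0.03 ± 0.07 and 0.01 ± 0.07. The second RAD50 probe averaged -0.06 ± 0.10, and those of LIG3, MSH3 and MRE11A differed from the brightest by 0.00, 0.01 and 0.10.

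**Figure D4:**
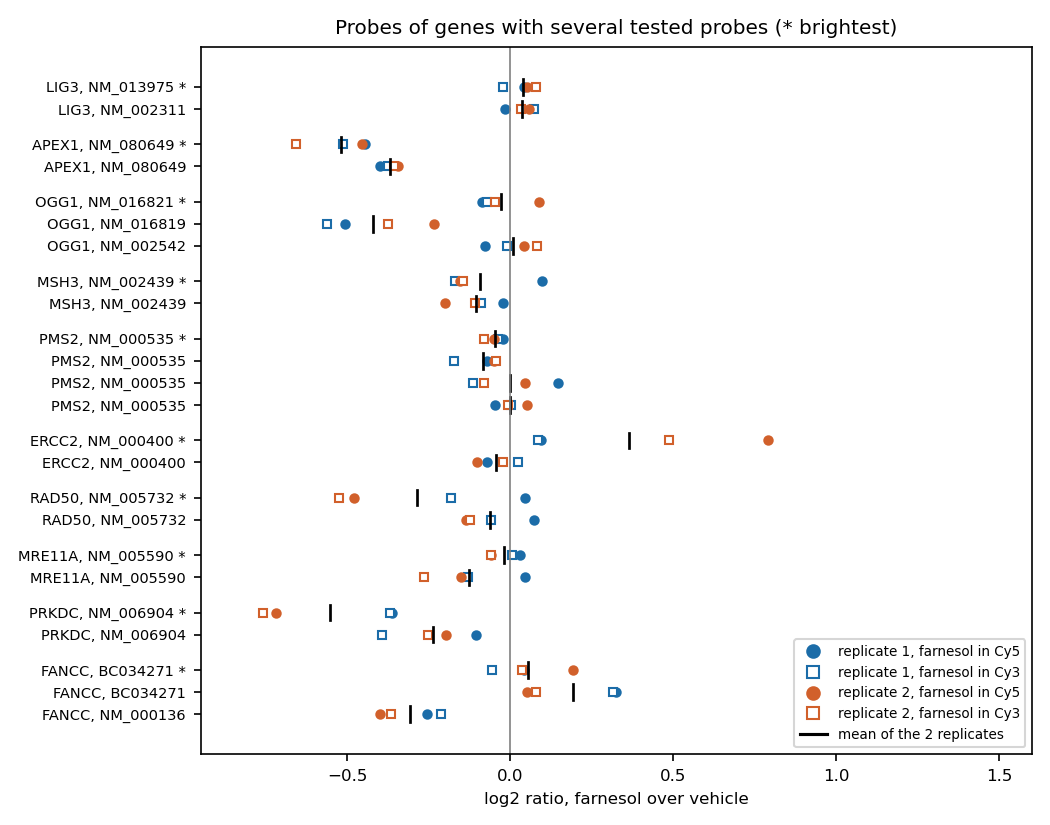
Log2 ratio of farnesol over vehicle (x axis) on each array for every tested probe of the 10 genes with several probes, labelled by gene and accession, with the brightest probe starred. Blue marks replicate 1 and orange replicate 2, filled circles farnesol in Cy5 and open squares farnesol in Cy3, and black bars the means. The NM_016819 probe of OGG1 and the NM_000136 probe of FANCC lie left of 0 on all 4 arrays, apart from the other probes of their genes.

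The authors' deposited table listed linear ratios, farnesol over vehicle, for 7018 of the probes (17.1%), all from replicate 1, of which 4055 were lower and 2963 higher. The largest p-value it gave was 0.001, by a test not named in the sources used here, so a probe missing from it is not thereby unchanged. It held 13 probes of 11 of the genes, 12 of them lower and 1 higher. In the authors' deposited table PARP1 had a ratio of 0.189, or 5.30-fold lower, FANCG 0.623, the NM_016819 probe of OGG1 0.632, MPG 0.655, ERCC3 0.657 and DDB1 0.702. The authors' deposited table also listed APEX1 at 0.712 and 0.715 on its 2 probes, PRKDC at 0.741, FANCC at 0.804 on the RefSeq probe, ERCC5 at 0.819 and XRCC1 at 0.829. The single higher ratio in the authors' deposited table was 1.29, for a retained-intron probe of FANCC. The 9 genes at least 1.25-fold lower in replicate 2 alone were picked for small ratios in replicate 1, the source of that list. That XRCC1 was the only one of them with an entry there follows largely from this selection and shows nothing further.

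A wider list covered the same pathways and 3 further groups: replication and clamp loading, direct reversal and lesion bypass, and p53-induced damage response genes. Each further group had 12 tested genes. Group medians in the wider list ran from -0.25 for Fanconi anaemia to 0.26 for p53-induced genes, so its pooled values mix unlike groups. Of 120 further repair and damage response genes listed, 112 were on the array under the listed name and 110 were tested. Their median log2 ratio was -0.10, or -0.0205 in replicate 1 and -0.23 in replicate 2. On all 4 arrays 43 were lower (39.1%) and 16 higher (14.5%), against 21.9% and 20.9% of all features. At least 1.25-fold lower in replicate 2 alone were 26 (23.6%), against 7.58%. The shares for lower ratios were close to those of the 38 genes. None passed the adjusted test by limma, and at an unadjusted p under 0.05, 23 were lower and 6 higher (10.8% and 3.71% of all features were). At least 2-fold lower in both replicates were 3 genes. RPA1, the large subunit of the single-strand binding protein used in excision and recombination, averaged -2.30 ± 0.57. RFC4, a subunit of the loader of the sliding clamp, had -1.79 in replicate 1 and -1.12 in replicate 2, and EXO1, the exonuclease of mismatch repair, had -1.14 and -1.06. Adjusted p-values by limma were 0.192 for RPA1, 0.206 for RFC4 and 0.192 for EXO1, each lower on 4 of 4 arrays.

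Other subunits of those complexes had smaller ratios. RPA2 averaged -0.33 ± 0.42 and RPA3 -0.37 ± 0.13, so the subunits of the single-strand binding protein were unequal. PCNA, the sliding clamp, averaged -0.98 ± 0.18, and the clamp loader subunit RFC5 averaged -0.70 ± 0.39. The other loader subunits RFC1, RFC2 and RFC3 lay between -0.24 and -0.04. The median of the 12 replication and clamp loading genes was -0.23, or -0.13 in replicate 1 and -0.32 in replicate 2. On all 4 arrays 7 of them were lower and 2 higher, against 21.9% and 20.9% of all features. G22P1, the Ku70 partner of XRCC5, averaged -0.63 ± 0.29. FEN1, the flap nuclease of base excision repair, averaged -0.54 ± 0.09. Both were lower on all 4 arrays, and neither passed the adjusted test by limma. RPA2, RPA3, PCNA, RFC5, G22P1 and FEN1 were singled out after their values were seen.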

How the data were processed

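RNA was amplified, per the labels' protocols, then labelled with Cy3 or Cy5 and hybridised to Agilent oligonucleotide arrays, whose scans were read by Agilent Feature Extraction (8.1.1.1 in the file headers, 8.1 in the labels). The deposited intensity values were mean spot and median local background brightness per channel, per the file headers. Processed intensity values, also deposited, had background subtracted and dyes normalised, and a deposited log10 value per spot gave Cy5 over Cy3 from them, per the file headers. A second kind of deposited file listed, for part of the probes, a linear ratio (farnesol over vehicle) and a p-value. Its program is not given in the sources used here. Its copies were identical and held replicate 1.

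In R 4.3.3 with limma 3.58.1 and data.table (version 1.17.8), normexp with offset 50 corrected the background, and loess normalised the log ratios of each array. Control and outlying spots had weight 0 in loess and were then dropped. Ratios were turned so that farnesol is over vehicle on every array, then spots of the same probe and, after that, both arrays of an RNA pair were averaged, giving n = 2. This offset pulls dim probes towards a ratio of 0. Intensities are per channel after loess and scaling of all arrays to 1 brightness distribution (Aquantile). A tested probe had to be well above background for farnesol, or for vehicle, on 1 or both arrays of replicate 1 and also of replicate 2, with the condition the same in both. A gene was represented by its brightest probe. This gave 28600 features, 17874 with a gene symbol and 10726 without. Control probes and 5 probes of the 38 genes below that level (2 of ATM, 2 of LIG4, 1 of MRE11A) were left out. Each array was on a slide of its own, so slide and array cannot be told apart.

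Replicate means were tested against 0 by limma's moderated test (two-sided), with 1 residual degree of freedom and 1.81 added by moderation, p-values adjusted by Benjamini-Hochberg over all features, and a threshold of 0.05. Genes past 2-fold or 1.5-fold were counted where both replicates and all 4 arrays had that direction. Counts at 1.25-fold used the replicate means and were chosen after the values were seen. The steps were tested on simulated data. All 38 genes are named with their ratios. Values per array were to be given for genes past 1.5-fold, and those of APEX1, DDB1, PRKDC, MSH6, BRCA1, ATR, ERCC2, OGG1 and FANCC were added after the values were seen. Of the other repair genes those past 2-fold were to be named. The genes, lists and marker lists were chosen with earlier results of these data known. No gene position or probe sequence was used here.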

Additional observations from a re-analysis of the deposited data

How the results depend on the processing

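The 10 alternatives changed the background offset, the signal column, the normalisation, the filter, the probe rule, the dye orientation, the treatment of technical repeats and the replicates. PARP1 stayed the 1 gene past 2-fold in all of them, its ratio ranging from -2.35 to -1.83, and FANCG ranged from -0.80 to -0.64. No gene of the 38 passed limma's adjusted test except with the 4 arrays kept apart and the RNA pair as a random block (estimated correlation 0.549), where 8 did, all lower, against 10.1% of all features: PARP1, FANCG, APEX1, PRKDC, XRCC1, DDB1, ERCC3 and ERCC5, with adjusted p-values of 0.00115 to 0.0457. That fit counts technical repeats towards its degrees of freedom. Features called elsewhere numbered 2 to 65. The median of the 38 genes lay between -0.23 with median centring and -0.11 with farnesol in Cy5 alone. Without replicate 1 it was -0.17 and without replicate 2 it was -0.0496. The number past 1.5-fold was 2 or 3, but 9 without replicate 1 and 2 without replicate 2. The number at least 1.25-fold lower in replicate 2 alone was 8 to 12, and that with 1 sign on all 4 arrays 17 to 20.

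Of 380 values of single genes, 24 changed sign, in 14 genes. With offset 0, OGG1 was 0.0151 and FANCA 0.0102. With median centring, LIG3 was -0.0664, XPC -0.0278, ATM 0.0138 and FANCC -0.1715. With probes of a gene averaged, FANCC was -0.0207. With farnesol in Cy5 alone, OGG1 was 0.001, XPC -0.0483, ERCC1 0.0292, CHEK2 0.0562 and FANCA 0.0563, and in Cy3 alone FANCC was -0.0105. Without replicate 1 and without replicate 2, in that order, OGG1 was 0.0198 and -0.0779, XPC -0.0117 and 0.0623, RAD52 -0.0694 and 0.1847, LIG4 -0.0225 and 0.0743, MSH6 -0.9784 and 0.0866, MRE11A -0.0592 and 0.0181, ATR -0.7233 and 0.1093, CHEK1 -0.4883 and 0.0597, CHEK2 -0.1021 and 0.073, FANCA -0.1115 and 0.0839, and FANCC 0.1139 and -0.0078. The causes were not tested.

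No paired analysis was possible beyond the main one because each ratio already pairs a farnesol RNA with its own vehicle RNA. Without a replicate, limma has no residual degree of freedom and gives no count, and counts over 4 arrays have no value where arrays were left out. The 2 replicates limit the precision, and dim probes such as those of LIG4, BRCA2, ATM and ERCC4 limit what a ratio near 0 shows.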

Other observations

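Genes known to be induced by p53 after DNA damage gave the highest ratios in the wider list. Of 12 tested, 5 were higher and 3 lower on all 4 arrays, against 20.9% and 21.9% of all features. Their median was 0.26. GADD45A, a growth arrest protein, had 3.24 in replicate 1 and 2.19 in replicate 2, with a mean of 2.71 ± 0.74 (SD, n = 2) and an adjusted p of 0.193 by limma with Benjamini-Hochberg adjustment. PLK3, a stress kinase, averaged 1.97 ± 0.49, and BTG2, an antiproliferative factor, 1.94 ± 0.66, so these 3 were past 2-fold in each replicate. SESN2, a stress-induced sestrin, averaged 1.22 ± 0.36, whereas its relative SESN1 averaged -0.27 ± 0.18 and was lower on all 4 arrays. CDKN1A, the cyclin-dependent kinase inhibitor p21, averaged 0.42 ± 0.10. BBC3 averaged 0.38 ± 0.25, but its brightest probe was saturated in 7 array channels. The median of the list lies between the means of PPM1D (0.14) and BBC3, so it rests in part on that saturated probe. MDM2, the ubiquitin ligase of p53, was near 0 at 0.04 ± 0.12, and TP53I3 and FDXR, also p53 targets, averaged -0.31 ± 0.11 and -0.20 ± 0.21. The members of the list therefore did not share a direction, and none passed the adjusted test. The genes other than those past 2-fold were singled out after their values were seen.

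The 12 tested genes of direct reversal and lesion bypass had a median of 0.05, which was 0.10 in replicate 1 but -0.11 in replicate 2. On all 4 arrays 2 of them were lower and 1 higher, against 21.9% and 20.9% of all features. The 2 lower were the ubiquitin-conjugating enzymes UBE2A, at -0.48 ± 0.29, and UBE2N, at -0.27 ± 0.21. UBE2B, a close relative of UBE2A, was higher at 0.30 ± 0.13.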
